A study of Rattus norvegicus with 4 samples.

Results

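The genes described are 41 symbols of the protein folding and degradation machinery of the endoplasmic reticulum (ER). They were listed by symbol, but with earlier results of these data known, so the list is not independent of the values. They comprise chaperones, enzymes of disulfide bond formation, components of the translocon, ER-associated degradation genes and the sensors of ER stress. Probe sets named 39 of the 41 symbols, out of 14217 genes named on the array. Derl3 and Ern1 had no named probe set and were not analysed here. Hyou1 and Edem3 lay under the floor of log2 = 5, which was taken as the limit of specific signal, on all 4 arrays. The remaining 37 genes were above the floor on every array.

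RNA came from hippocampal progenitor cells of Fisher 344 rats, and each group is 1 Affymetrix array, 4 arrays in all. Cells received KHS101 (a compound that the study tested for accelerating neuronal differentiation) at 5 uM or at 1.7 uM, or 1 uM retinoic acid together with forskolin (an activator of adenylyl cyclase) as positive control, or the solvent DMSO as negative control. The protocol in the labels gives a plating density of 1000 cells per square centimetre, 4 days of treatment and 0.1% DMSO. It covers several experiments, and the sources used here state no concentration of forskolin. With 1 array a group differences have no replicate check and no p-value, and precision is limited by how few arrays there are. Genes that differed by 2-fold or more (1 on the log2 scale) are called higher or lower. The comparisons with DMSO share its single array.

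Proteins that enter the secretory pathway are threaded through the Sec61 translocon into the ER, where chaperones, lectins and disulfide isomerases fold them. Chains that fail to fold are recognised, pulled back into the cytosol and handed to the proteasome, a route called ER-associated degradation. When unfolded protein accumulates, the sensors IRE1 (encoded by Ern1), ATF6 and PERK (encoded by Eif2ak3) set off the unfolded protein response. ATF6 is cut in the Golgi by the site 1 and site 2 proteases (encoded by Mbtps1 and Mbtps2), IRE1 splices the Xbp1 transcript, and PERK phosphorylates the translation factor eIF2alpha, which favours translation of ATF4.

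The cells expressed the progenitor markers Nes, Sox2, Vim and Fabp7, whereas Pax6, Sox1 and Hes5 lay under the floor on all arrays and Sox9 had no named probe set. Of the oligodendrocyte markers with a probe set, Olig1, Olig2 and Mbp were each lower with KHS101 at 5 uM than in DMSO, and Mog was above the floor, by 0.03, with retinoic acid plus forskolin alone. The log2 of the summed linear levels of these 4 genes was 13.15 with KHS101 at 5 uM, 13.87 at 1.7 uM, 14.98 with retinoic acid plus forskolin and 14.54 in DMSO. That of the 4 progenitor markers was 15.27 with KHS101 at 5 uM, 15.70 at 1.7 uM, 15.92 with retinoic acid plus forskolin and 16.04 in DMSO. Within this list Fabp7 differed from DMSO by -2.11 with KHS101 at 5 uM, while Nes differed by 0.52, Vim by -0.395 and Sox2 by -0.44. On the retinoic acid plus forskolin array Fabp7 differed by 0.50, Nes by -0.69, Sox2 by -0.20 and Vim by -1.11, the last called lower. With retinoic acid plus forskolin the neuronal Tubb3 was 1.14 above DMSO and the astrocytic S100b 1.05 above it, both called, and with KHS101 at 5 uM they were 0.63 and 0.17 above it. Of the other neuronal markers Map2 and Syp were above the floor and Dcx, Rbfox3 and Snap25 were not. Map2 differed from DMSO by 0.14 with KHS101 at 5 uM, 0.21 at 1.7 uM and 0.32 with retinoic acid plus forskolin. Syp differed by -0.10, -0.51 and 0.16 in the same order. The astrocyte markers Gfap, Aqp4 and Aldh1l1 were not above the floor. The endothelial Kdr was above the floor with retinoic acid plus forskolin alone, at 6.54, and Pecam1 and Flt1 on no array. None of the 5 microglial, the 5 fibroblast or the 2 named B-lineage markers was above the floor on any array. For the control probe sets of beta-actin, the 3' minus 5' log2 difference was 1.54 on the KHS101 5 uM array, 1.40 on the 1.7 uM array, 1.37 with retinoic acid plus forskolin and 1.26 in DMSO. The part of these marker and RNA quality differences in the results was not tested. In such bulk RNA, fewer cells of a type and less RNA per cell cannot be told apart.

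A promoter window (250 bases before to 50 after the annotated start, RefSeq, build GRCr8) was on hand for 33 of the 41 genes. These windows were searched on both strands for the ER stress element (CCAAT, any 9 bases, then CCACG), through which ATF6 acts with the CCAAT factor NF-Y, and 9 of 33 held it (27.3%), against 21 of all 27457 windows (0.0765%). Hspa5, Hsp90b1 and Calr are among the genes in which the element was defined, in human. The matches in measured genes are shown because their bearers are mostly chaperone genes. They are written 5′ to 3′ on the strand that carries the motif, with the fixed letters in capitals.
Hspa5, chr3:38452973-38452991: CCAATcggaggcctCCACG
Hsp90b1, chr7:23012451-23012469: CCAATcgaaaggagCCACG
Hsp90b1, chr7:23012347-23012365: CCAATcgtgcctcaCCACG
Dnajc3, chr15:102432534-102432552: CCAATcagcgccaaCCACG
Calr, chr19:40213135-40213153: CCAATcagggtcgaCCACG
Canx, chr10:35158069-35158087: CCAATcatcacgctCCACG
Creld2, chr7:121789239-121789257: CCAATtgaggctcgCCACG
Ero1b, chr17:92941458-92941476: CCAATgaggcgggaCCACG
Xbp1, chr14:84604558-84604576: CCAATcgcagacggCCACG
The ninth bearer was Derl3.

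The shorter ER stress element II (ATTGG, any base, then CCACG) was present in the windows of Herpud1, Dnajb11 and Hyou1, 3 of 33 (9.09%) against 15 of 27457 (0.0546%). The core TGACGTGG, bound by XBP1 and ATF6, was in those of Dnajc10 and Hyou1 (6.06%, against 0.637% of all windows), and the Hyou1 match overlaps an ER stress element II. The composite core TGATGNAA of ATF4 and C/EBP factors was in Herpud1 alone among the 33 (3.03%, against 3.82% of all windows). A match is a stretch of letters and not a shown site, and windows without one say nothing of the factors. Herpud1 was the gene with a match to both an ER stress element II and the composite core, the latter at a share near that of all windows. Other patterns were not searched. The Herpud1 window (chr19:10614658-10614957, minus strand) is printed, in the direction of the gene, beside that of Hspa5 (chr3:38452766-38453065, plus strand). The 2 were picked because Herpud1 differed from DMSO with KHS101 by more than 2-fold and Hspa5 did not. Whether the marked letters bear on that difference was not tested. Capitals mark the composite core (reverse complement) and then the ER stress element II in Herpud1, and the ER stress element in Hspa5.
Herpud1: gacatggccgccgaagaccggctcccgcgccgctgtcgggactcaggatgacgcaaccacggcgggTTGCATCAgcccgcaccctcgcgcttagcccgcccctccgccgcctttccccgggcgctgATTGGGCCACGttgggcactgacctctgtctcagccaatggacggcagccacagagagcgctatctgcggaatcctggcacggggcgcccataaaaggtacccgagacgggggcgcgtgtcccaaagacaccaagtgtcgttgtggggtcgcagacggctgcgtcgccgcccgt
Hspa5: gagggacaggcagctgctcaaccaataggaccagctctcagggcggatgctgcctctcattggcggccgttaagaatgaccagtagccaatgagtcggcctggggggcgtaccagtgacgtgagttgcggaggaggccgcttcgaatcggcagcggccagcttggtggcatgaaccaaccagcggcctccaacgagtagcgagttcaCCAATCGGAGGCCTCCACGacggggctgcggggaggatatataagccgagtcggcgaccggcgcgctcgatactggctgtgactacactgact

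KHS101 at 5 uM was set against DMSO to ask which ER genes differed at the larger dose. Atf6, Herpud1, Selenos, Edem1, Mbtps2 and Sel1l were called higher, of which 4 belong to ER-associated degradation and 2 to the sensors and their processing factors. These are 6 of 37 measured members (16.2%), against 6.16% of all 8543 measured genes called higher, and 0 members were lower, against 8.10% of all genes. The median log2 difference of the members was 0.20, against 0.00 over all genes. Centring the arrays on the median level of the reference genes rests on B2m alone, which was 0.58 above DMSO at 5 uM. The other measured reference genes ran from -0.09 (Tbp) to 0.20 (Rplp0). This centring moves the median of all genes to -0.58 and that of the members to -0.38. On that scale Atf6, Herpud1 and Selenos were still called higher, and Mbtps1, Creld2, Sec61g, Sdf2l1 and Dnajc10 were called lower, 3 and 5 members, against 2.63% and 22.4% of all genes. At 1.5-fold, 11 members were higher and 1 lower, against 14.6% and 16.1% of all genes. The other 31 members differed by less than 2-fold, from -0.64 for Mbtps1 to 0.97 for Dnajb9.

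**Figure D1:**
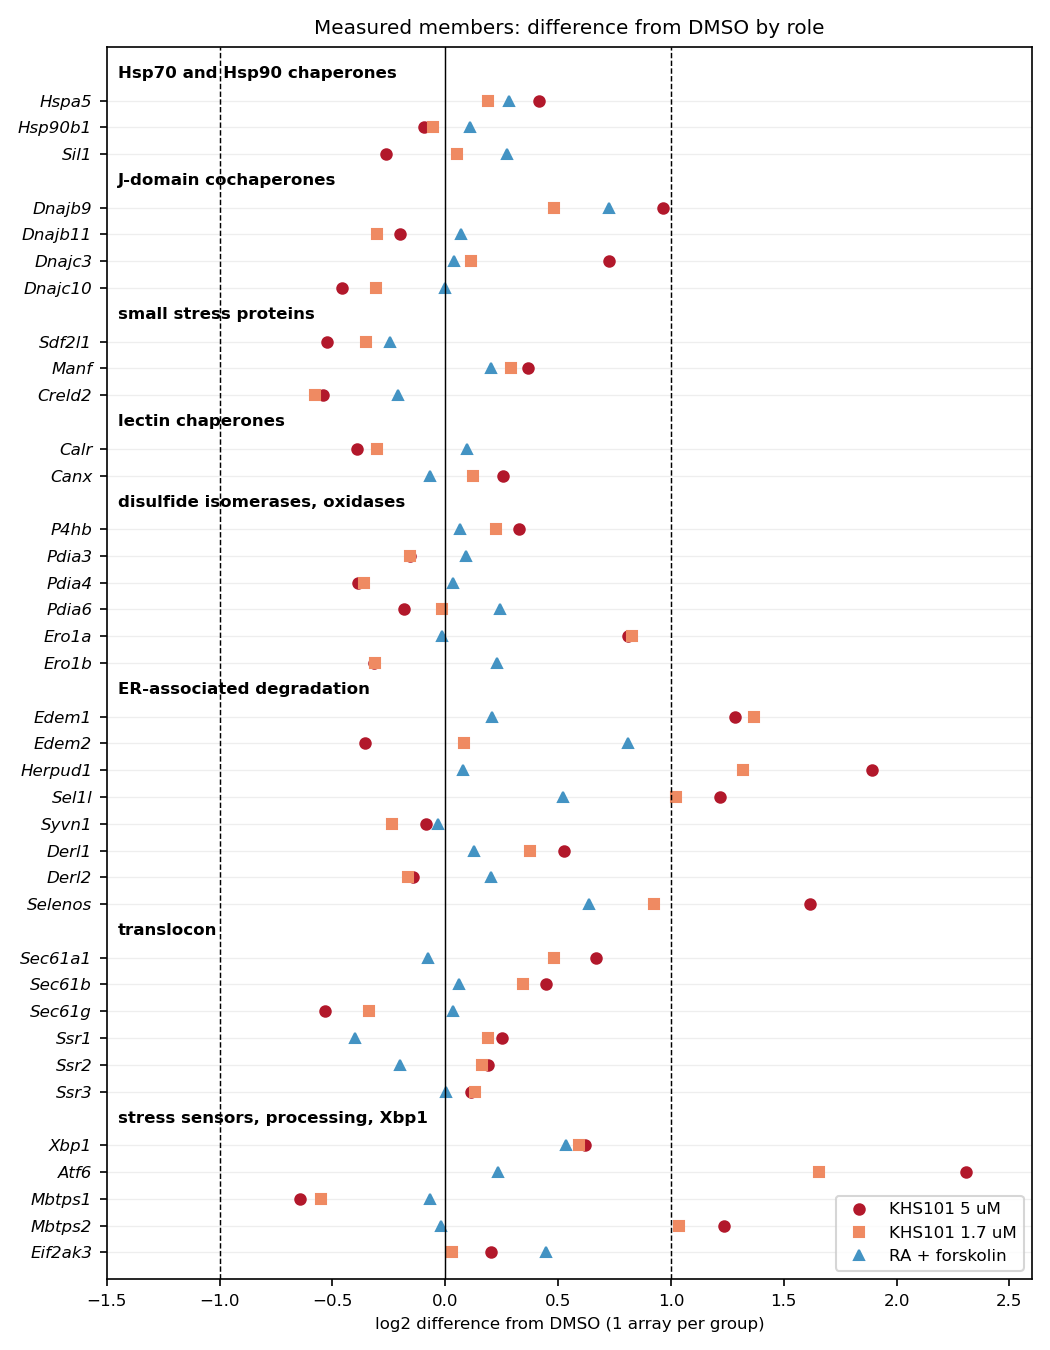
Log2 difference from DMSO (horizontal axis) of the 37 measured members, grouped by role, for KHS101 5 uM (circles), KHS101 1.7 uM (squares) and retinoic acid with forskolin (triangles), 1 array per group. Dashed lines mark 2-fold. The points beyond them, all higher, are in the degradation group and the sensor group, up to 2.31 for Atf6.

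Among the sensors and their processing factors, Atf6, a membrane-bound transcription factor released under ER stress, had log2 values of 11.46 with KHS101 at 5 uM, 10.81 at 1.7 uM, 9.39 with retinoic acid plus forskolin and 9.15 in DMSO. Both KHS101 arrays stood above the retinoic acid and DMSO arrays, which lay close together. Its difference from DMSO was 2.31 at 5 uM (4.95-fold), which ranked 94 from the top among 8543 measured genes, 1.66 at 1.7 uM (3.15-fold) and 0.23 with retinoic acid plus forskolin. A dimmer probe set of Atf6 was under the floor on every array and was not used, so that these values rest on 1 probe set.

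The proteases that release ATF6 differed in opposite directions. Mbtps2, the site 2 protease, had log2 values of 9.93 with KHS101 at 5 uM, 9.73 at 1.7 uM, 8.67 with retinoic acid plus forskolin and 8.69 in DMSO, so that it was 2.35-fold higher at 5 uM and 2.05-fold higher at 1.7 uM. Mbtps1, the site 1 protease, had 10.67 with KHS101 at 5 uM, 10.76 at 1.7 uM, 11.25 with retinoic acid plus forskolin and 11.31 in DMSO, a difference of -0.64 at 5 uM and -0.55 at 1.7 uM. It was the member with the largest difference downward at 5 uM, short of 2-fold, while the retinoic acid array and the DMSO array lay within 0.1 of each other for both proteases.

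Of the other sensor branches, Xbp1, the target of IRE1, was at 11.87 with KHS101 at 5 uM, 11.84 at 1.7 uM, 11.79 with retinoic acid plus forskolin and 11.25 in DMSO. All treatments were above DMSO by 0.54 to 0.62, none of them called. These values give the amount of Xbp1 RNA, and the spliced form was not analysed here. Eif2ak3, which encodes PERK, had 9.12 with KHS101 at 5 uM, 8.94 at 1.7 uM, 9.36 with retinoic acid plus forskolin and 8.91 in DMSO, with the highest value under retinoic acid plus forskolin.

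In ER-associated degradation 4 of 8 measured genes were called higher with KHS101 at 5 uM and 3 of 8 at 1.7 uM, against 6.16% and 4.36% of all genes, with medians of 0.87 and 0.65. Edem2, Derl2 and Syvn1 lay below DMSO at 5 uM. Herpud1, a membrane protein that gathers the ubiquitin ligase complex and whose promoter is shown above, had log2 values of 12.69 with KHS101 at 5 uM, 12.11 at 1.7 uM, 10.87 with retinoic acid plus forskolin and 10.80 in DMSO. It was 3.71-fold higher at 5 uM and 2.49-fold higher at 1.7 uM, and the retinoic acid array was within 0.08 of DMSO. Selenos, a selenoprotein that links the complex to the extracting ATPase VCP, had 12.38 with KHS101 at 5 uM, 11.69 at 1.7 uM, 11.40 with retinoic acid plus forskolin and 10.76 in DMSO. All treatments exceeded DMSO here, by 3.07-fold at 5 uM, 1.90-fold at 1.7 uM and 1.56-fold with retinoic acid plus forskolin, and only the first passed 2-fold.

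Edem1, a lectin-like protein that takes misfolded glycoproteins out of the folding cycle, had log2 values of 12.16 with KHS101 at 5 uM, 12.24 at 1.7 uM, 11.08 with retinoic acid plus forskolin and 10.87 in DMSO. It was 2.43-fold higher at 5 uM and 2.58-fold higher at 1.7 uM. Its paralogue Edem2 did not follow and was at 7.02 with KHS101 at 5 uM, 7.46 at 1.7 uM, 8.18 with retinoic acid plus forskolin and 7.37 in DMSO. Its highest value was under retinoic acid plus forskolin, 0.81 above DMSO and not called. Edem3 was under the floor.

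Sel1l, the scaffold of the ubiquitin ligase that removes misfolded proteins, had log2 values of 9.04 with KHS101 at 5 uM, 8.85 at 1.7 uM, 8.35 with retinoic acid plus forskolin and 7.82 in DMSO, and was 2.32-fold higher at 5 uM and 2.03-fold higher at 1.7 uM. Syvn1, the catalytic partner of Sel1l, had 9.30 with KHS101 at 5 uM, 9.16 at 1.7 uM, 9.36 with retinoic acid plus forskolin and 9.39 in DMSO, a range of 0.23 over all arrays. The derlins, membrane proteins of the retrotranslocation channel, were not called: Derl1 was 0.52 above DMSO with KHS101 at 5 uM, 0.38 above at 1.7 uM and 0.13 above with retinoic acid plus forskolin. Derl2 differed from DMSO by -0.14 with KHS101 at 5 uM, -0.17 at 1.7 uM and 0.20 with retinoic acid plus forskolin.

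**Figure D2:**
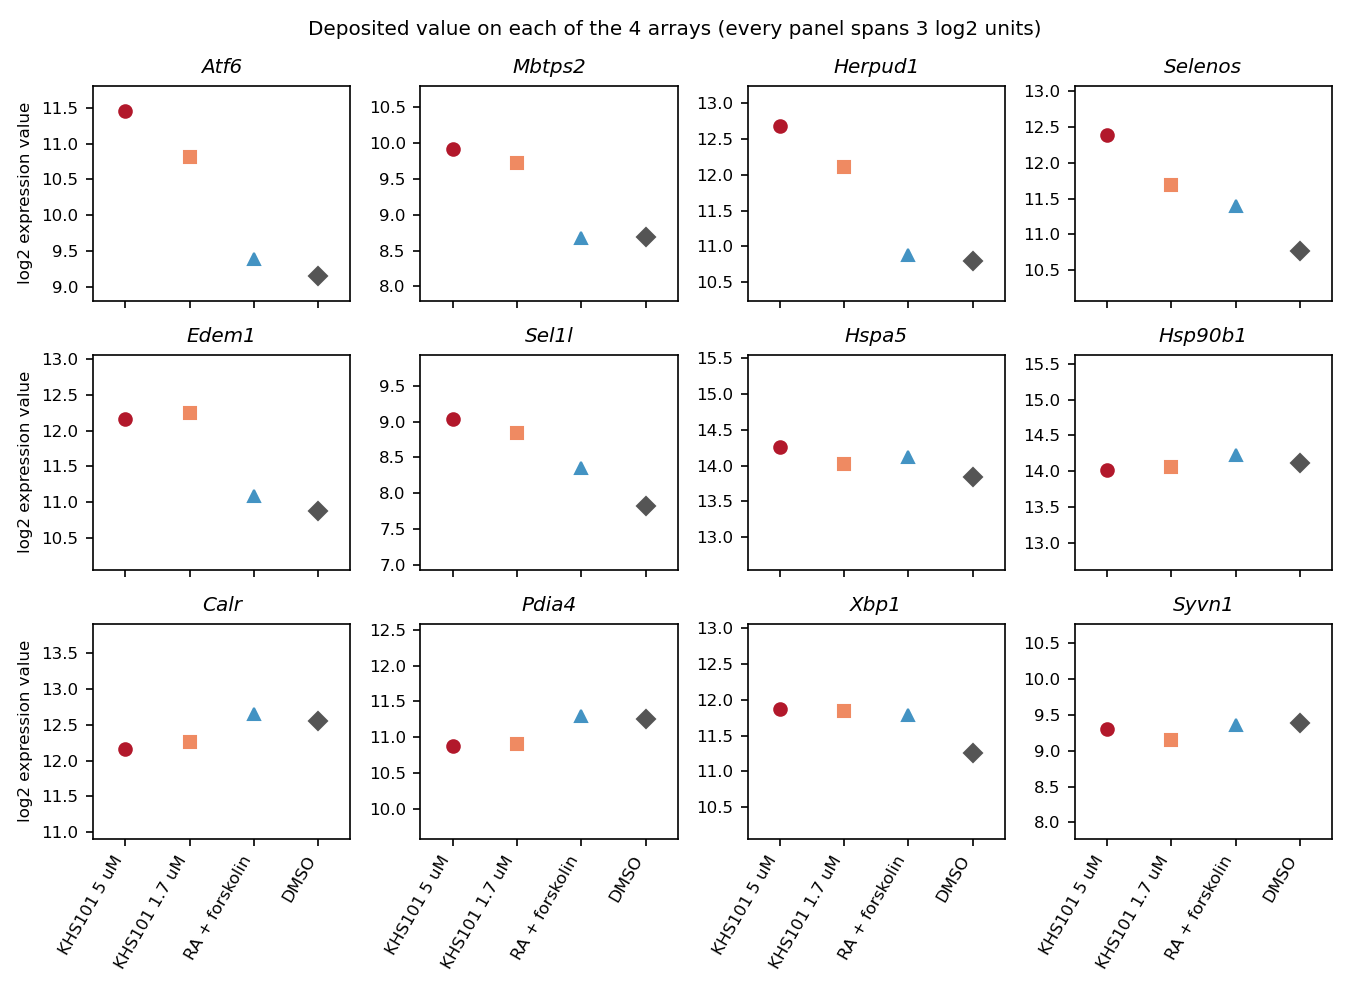
Deposited log2 value on each of the 4 arrays for the 6 members called higher with KHS101 at 5 uM and for 6 members that were not, in panels of equal span. Atf6, Mbtps2, Herpud1 and Edem1 show both KHS101 arrays apart from the retinoic acid and DMSO arrays, and Hsp90b1 and Syvn1 stay within 0.23 on all arrays.

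Of the 18 measured chaperone, lectin and disulfide members 0 were called by their brightest probe set in any of the 6 comparisons on the deposited scale. A dimmer probe set of Pdia3 passed 2-fold downward against retinoic acid plus forskolin, at -1.40 with KHS101 at 5 uM and -1.10 at 1.7 uM. The brightest gave -0.25 at both. Over all genes the shares called were 6.16% higher and 8.10% lower at 5 uM against DMSO. They ran from 0.812% and 1.73% between the KHS101 doses to 8.94% and 10.2% at 5 uM against retinoic acid plus forskolin. Whether 0 among so few genes falls short of these shares was not tested. The median difference of the 18 members from DMSO was -0.17 with KHS101 at 5 uM, -0.04 at 1.7 uM and 0.08 with retinoic acid plus forskolin. Hspa5, the ER Hsp70 (BiP) and a common readout of ER stress, had log2 values of 14.25 with KHS101 at 5 uM, 14.03 at 1.7 uM, 14.12 with retinoic acid plus forskolin and 13.84 in DMSO. The difference of 0.42 at 5 uM was the largest of the 3 measured Hsp70 and Hsp90 genes, and it was -0.17 under the scaling that rests on B2m. Hsp90b1, the ER Hsp90, had 14.02 with KHS101 at 5 uM, 14.06 at 1.7 uM, 14.23 with retinoic acid plus forskolin and 14.12 in DMSO, and so hardly differed between arrays. Sil1, the nucleotide exchange factor of BiP, was near the floor at 5.06 with KHS101 at 5 uM, 5.38 at 1.7 uM, 5.60 with retinoic acid plus forskolin and 5.33 in DMSO.

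The J-domain cochaperones, which stimulate the ATPase of BiP, split. Dnajb9 was at 10.07 with KHS101 at 5 uM, 9.59 at 1.7 uM, 9.84 with retinoic acid plus forskolin and 9.11 in DMSO, so that all treatments lay above DMSO and the difference at 5 uM, 0.97, fell just short of the call. Dnajc3, also an inhibitor of PERK, was at 10.65 with KHS101 at 5 uM, 10.04 at 1.7 uM, 9.97 with retinoic acid plus forskolin and 9.93 in DMSO, with the 5 uM array apart from the others by 0.61 or more. Dnajb11 and Dnajc10, which also reduces disulfides, were lower than DMSO with KHS101 by 0.46 or less.

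Among the small ER stress proteins, Manf was above DMSO by 0.37 with KHS101 at 5 uM and 0.29 at 1.7 uM, while Creld2 and Sdf2l1 were below it. Creld2, a protein with isomerase activity, had log2 values of 11.19 with KHS101 at 5 uM, 11.15 at 1.7 uM, 11.52 with retinoic acid plus forskolin and 11.73 in DMSO. Sdf2l1, a partner of BiP complexes, had 10.61 with KHS101 at 5 uM, 10.78 at 1.7 uM, 10.89 with retinoic acid plus forskolin and 11.13 in DMSO. For both, DMSO was the highest array. Of the lectin chaperones, which hold glycoproteins during folding, calreticulin (Calr) differed from DMSO by -0.39 at 5 uM and -0.30 at 1.7 uM, and calnexin (Canx) by 0.25 and 0.12.

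The disulfide isomerases and oxidases were led by Ero1a, the oxidase that recharges protein disulfide isomerase. It had log2 values of 8.39 with KHS101 at 5 uM, 8.40 at 1.7 uM, 7.56 with retinoic acid plus forskolin and 7.57 in DMSO, which puts the KHS101 arrays 1.75-fold and 1.77-fold above DMSO. Its paralogue Ero1b differed by -0.32 and -0.31 with KHS101 and by 0.23 with retinoic acid plus forskolin. The isomerases P4hb, Pdia3, Pdia4 and Pdia6 stayed between -0.39 (Pdia4) and 0.33 (P4hb) at 5 uM.

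In the translocon, 5 of 6 measured genes were above DMSO with KHS101 at both concentrations and 0 were called, a count near the background of 6.16% of all genes higher at 5 uM and 4.36% at 1.7 uM. Sec61a1, which forms the channel, had log2 values of 12.69 with KHS101 at 5 uM, 12.50 at 1.7 uM, 11.94 with retinoic acid plus forskolin and 12.02 in DMSO, a difference of 0.67 at 5 uM. The small subunit genes went separate ways, with Sec61b 0.45 above DMSO and Sec61g 0.53 below it at 5 uM (log2 difference -0.53). Ssr1, Ssr2 and Ssr3, of the translocon-associated protein complex, differed by 0.11 to 0.25 at 5 uM, and Ssr1 had its lowest value under retinoic acid plus forskolin, -0.40 from DMSO.

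Members were mostly abundant, and calls upward were fewer among abundant genes. Of the 14 members above a log2 value of 12 in DMSO 0 were called with KHS101 at 5 uM, where 1.13% of all 974 genes at that level were called higher. In the band from 10 to 12, 3 of 12 members (Edem1, Herpud1 and Selenos) were called, against 2.84% of 2465 genes. From 8 to 10 these were 2 of 6 members (Atf6 and Mbtps2) against 4.88% of 2951 genes, and from 5 to 8 it was 1 of 5 (Sel1l) against 11.2% of 1999.

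Of 10 measured genes with either ER stress element 1 was called higher with KHS101 at 5 uM (Herpud1), and their median difference was 0.08. Of 20 measured genes with a promoter window and neither element 4 were called (Selenos, Edem1, Mbtps2 and Sel1l), with a median of 0.15. Beside 6.16% of all genes called higher, the first count is near the background, and the difference between the sets was not tested. Atf6 is in neither set.

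KHS101 at 1.7 uM was compared with DMSO in the same way. Here 5 of 37 members were higher, against 4.36% of all 8533 genes, and 0 were lower, against 4.27%. They were Atf6, Edem1, Herpud1, Mbtps2 and Sel1l. Selenos, at 0.93, was the nearest below the call and Sel1l, at 1.02, the nearest above it. When arrays were centred on the median change of the reference genes, Mbtps2 (0.96) and Sel1l (0.94) were no longer called, leaving 3, against 3.80% of all genes. Under the scaling that rests on B2m Atf6 was still called higher, and Creld2 and Mbtps1 were called lower, against 2.18% and 11.6% of all genes. The members' median was 0.12, against -0.01 over all genes, and it was -0.33 on that scale. At 1.5-fold, 8 members were higher and 0 lower, against 10.5% and 10.6% of all genes.

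The KHS101 concentrations were then compared with each other. Against 1.7 uM, 0 of 37 members were called higher at 5 uM, where 0.812% of all 8500 genes were, and 0 were lower, against 1.73%. At 1.5-fold 3 members were higher and 0 lower, against 3.62% and 6.27% of all genes. Selenos had the largest step, 0.69 (1.61-fold), followed by Atf6 at 0.65 and Dnajc3 at 0.61, and Herpud1 had 0.57. Edem1 (-0.08), Ero1a (-0.02) and Xbp1 (0.02) differed by less than 0.1 between the doses, and Edem2 had the largest step downward, -0.44.

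Retinoic acid with forskolin, the positive control, was compared with DMSO to see whether the same genes moved. None of the 37 members was called higher or lower, against 4.34% and 3.15% of all 8535 genes. The values ran from -0.40 (Ssr1) to 0.81 (Edem2), and Dnajb9 at 0.73 and Selenos at 0.64 followed. These 3 were the members past 1.5-fold, with 0 lower, against 11.3% and 12.2% of all genes. The median was 0.08, and -0.25 under the scaling that rests on B2m.

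KHS101 was also set against the positive control, a comparison that leaves out the DMSO array. At 5 uM Atf6 was 4.21-fold higher, Herpud1 3.51-fold, Mbtps2 2.38-fold and Edem1 2.11-fold, while Edem2 was 2.25-fold lower. This made 4 members higher and 1 lower of 37, against 8.94% and 10.2% of all 8606 genes. At 1.7 uM the same 4 genes were higher, by 2.68-fold for Atf6, 2.36-fold for Herpud1, 2.23-fold for Edem1 and 2.08-fold for Mbtps2, and 0 were lower (5.93% and 5.39% of all 8588 genes). Selenos and Sel1l were not called against retinoic acid plus forskolin, at 0.98 and 0.69 for 5 uM. Centred on the median change of the reference genes, Edem1 at 5 uM (0.93) and Mbtps2 at 1.7 uM (0.96) were no longer called. Under the scaling that rests on B2m, Edem1 (0.81) and Mbtps2 (0.99) were no longer called at 5 uM, which left 2 members higher. On that scale 5.94% of all genes were higher, so that this count is near the background. Mbtps2 (0.92) was no longer called at 1.7 uM. At 1.5-fold, 10 members were higher and 1 lower at 5 uM, against 18.7% and 20.0% of all genes, and 6 higher and 1 lower at 1.7 uM, against 13.8% and 13.1%.

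For 9 members the difference could be read by further probe sets above the floor, which share the RNA and the array and so cover probe noise alone. With KHS101 at 5 uM, 12 of 13 further probe sets differed from DMSO in the direction of the brightest, and the median gap to it was 0.11. The probe sets of Edem1 gave 1.28, 1.17 and 1.11 at 5 uM, and 1.37, 1.35 and 1.08 at 1.7 uM, so each passed 2-fold. The exception was Derl2, at -0.14 for the brighter and 0.19 for the dimmer probe set. Herpud1, Selenos, Sel1l and Mbtps2 rest on a single probe set each. With retinoic acid plus forskolin 7 of 13 further probe sets had the same direction.

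**Figure D3:**
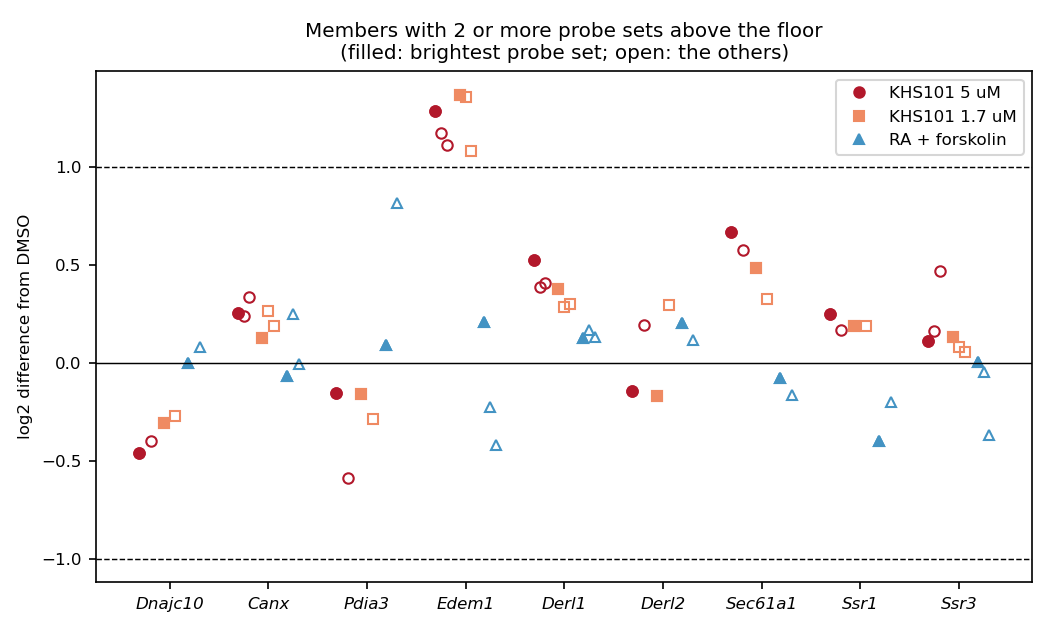
Log2 difference from DMSO of every probe set above the floor for the 9 members with at least 2, with the brightest filled and the others open. All 3 Edem1 probe sets lie above the 2-fold line at both KHS101 concentrations and on both sides of 0 with retinoic acid plus forskolin.

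Other genes of the pathway were then read from 7 lists. These lists, too, were chosen with earlier results of these data known. The list of readouts of the PERK and ATF4 branch had the medians furthest from DMSO, 4.05 with KHS101 at 5 uM and 2.41 at 1.7 uM. In it 8 of 8 genes were higher at both concentrations, against 6.16% and 4.36% of all genes. With retinoic acid plus forskolin 0 of 7 were called, a count near the background of 4.34% higher and 3.15% lower. There the values ran from -0.98 for Chac1, just short of the call, to 0.73 for Trib3. At 1.5-fold 1 was higher and 2 lower, against 11.3% and 12.2% of all genes. The activity of PERK was not measured, and what lay upstream of these differences was not tested. Atf4 itself had log2 values of 13.99 with KHS101 at 5 uM, 13.77 at 1.7 uM, 11.73 with retinoic acid plus forskolin and 12.04 in DMSO. Ddit3, the transcription factor CHOP, was 12.1-fold higher at 5 uM and 5.73-fold higher at 1.7 uM, and Ppp1r15a, a phosphatase subunit that reverses the block of translation, 19.0-fold and 4.94-fold. The smallest difference in this list at 5 uM, 1.95 for Atf4, was larger than that of every ER member except Atf6.

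The remaining lists are read beside the 6.16% of all genes called higher and the 8.10% called lower at 5 uM. Of 13 measured other disulfide isomerases 2 were higher at 5 uM, Txndc11 at 2.56-fold and Qsox2 at 2.00-fold, and 0 were lower. Among 27 other ER degradation genes 3 were higher: Dnajb14, a J-protein of the ER membrane, 2.38-fold, the ubiquitin ligase Rnf185 2.30-fold and the mannosidase Man1b1 2.03-fold. At 1.7 uM 0 of these 27 were called, and of the 13 disulfide isomerases 1 was higher (Txndc11), against 4.36% of all genes.

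Of 16 genes of N-glycan addition and trimming 1 was higher at 5 uM, the oligosaccharyltransferase subunit Stt3a at 2.21-fold, and of 18 other translocation and signal peptidase genes 0 were. At 1.7 uM 0 genes of either list were called, counts near the background of 4.36% of all genes higher. Creb3l1, a membrane-bound transcription factor like ATF6, lay under the floor in DMSO. It was at least 5.11-fold higher at 5 uM and at least 3.77-fold higher at 1.7 uM, and was the sole call among 7 other ER stress factors. In the calcium and retrieval list Kdelr3, a receptor that returns ER proteins from the Golgi, was 2.85-fold higher at 5 uM and 2.03-fold higher at 1.7 uM. Itpr2, an ER calcium channel, was at least 3.06-fold higher with retinoic acid plus forskolin, the sole call of that treatment in these lists.

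**Figure D4:**
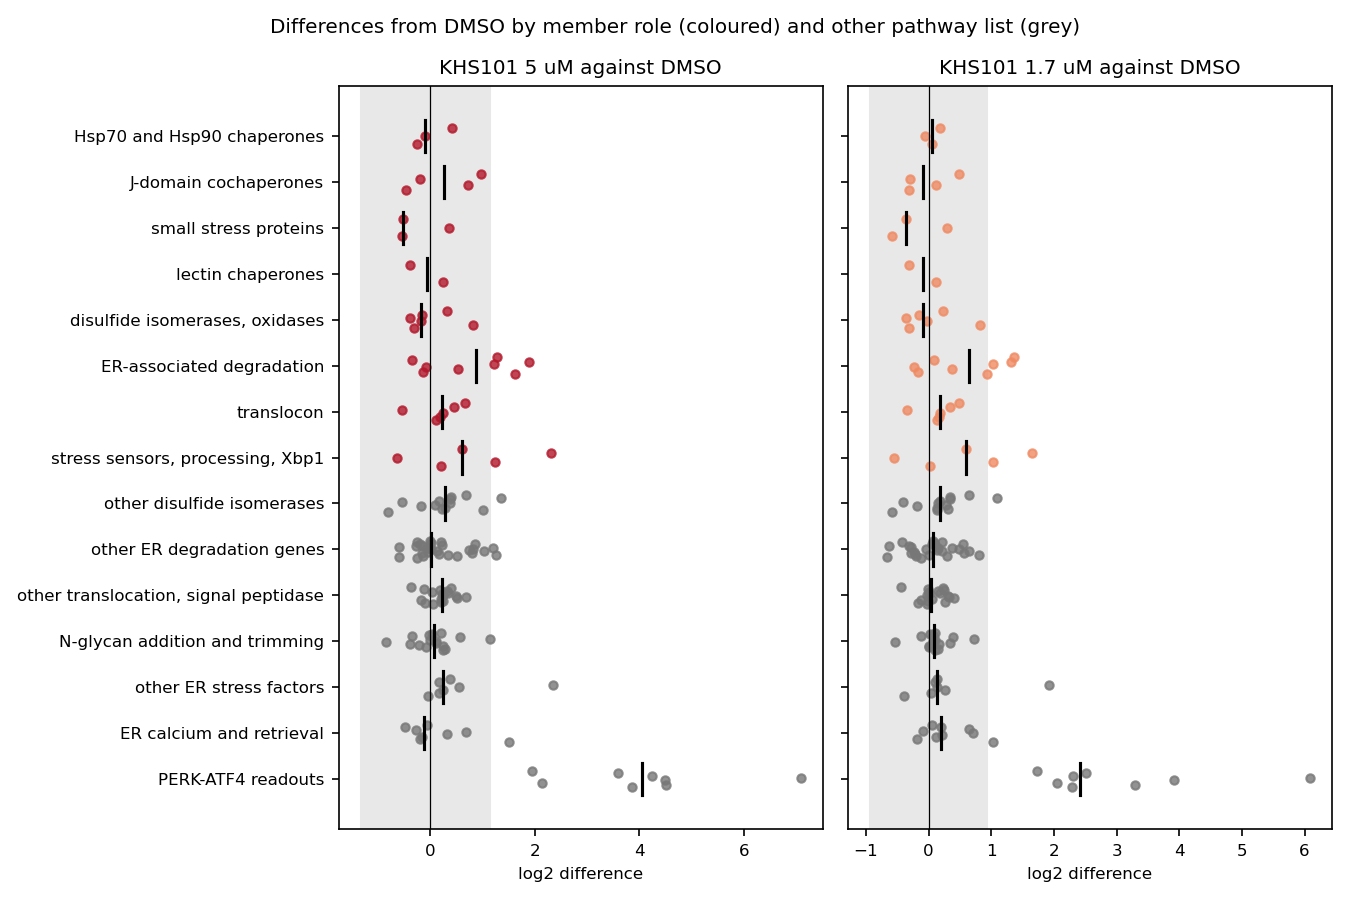
Log2 differences from DMSO of the members by role (coloured points) and of the other pathway lists (grey points), with medians as black bars, for KHS101 5 uM (left) and 1.7 uM (right). The shaded band spans the 5th to 95th percentile of all measured genes. The PERK and ATF4 readouts lie beyond the band at both concentrations, and the members of the folding roles lie within it.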

How the data were processed

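The authors deposited log2 expression values for 31099 probe sets on 4 arrays. Per the submitters' processing notes the tools were GCRMA and R 2.6.2, with no role stated. The log2 scale was read from the values (medians from 3.67 to 3.76), whose sorted columns differed by at most 0.19, so a shift of all genes could not be seen. No genome build is named for the values. The platform annotation gave 1 gene symbol for 20826 probe sets, several for 436 and none for 9780, beside 57 control probe sets. No symbol needed an update through the RefSeq table.

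A gene took its brightest probe set over the 4 arrays. Values under log2 = 5 were raised to that floor, a gene entered a comparison if either array was above it, and "at least" marks a fold against a floored array. Between 8389 and 8471 genes were above the floor on each array. No test was run, as each group has 1 array. Counts are set beside those over all measured genes. Other floors, folds, probe set rules and scalings were tried. The calling step was tested on simulated data.

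The members and lists were chosen with earlier results of these data known. All members may be named; other lists gave up to 4 genes each with the largest calls against DMSO. Any gene of the PERK and ATF4 list may be named. The reference genes measured were 7 of 12. Calculations used Python 3.11.15, NumPy 2.4.6 and pandas 2.3.3, and plots matplotlib 3.10.9.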

Additional observations from a re-analysis of the deposited data

How the results depend on the processing

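The counts of members and their medians in the 6 comparisons stayed within 1.5 times or 0.1 log2 units of the reported values with a floor of 4, a floor of 6 or none, with the mean of all probe sets, without the less specific probe sets, and with quantile normalization. Of the members measured at the floor of 5, 0 changed their call there. Without a floor Hyou1 also passed 2-fold upward with KHS101 at 5 uM against DMSO (4.22 against 3.20), where 4.28% of all genes were higher. At a 1.5-fold threshold 11 members were higher and 1 lower with KHS101 at 5 uM against DMSO, 8 higher at 1.7 uM, 3 higher with retinoic acid plus forskolin and 3 higher at 5 uM against 1.7 uM. At that threshold 10 were higher at 5 uM against retinoic acid with forskolin, and 1 was lower at 1.7 uM against it. At 3-fold, 3 were higher at 5 uM and 1 at 1.7 uM against DMSO, where 2.55% and 1.71% of all genes were. Against retinoic acid with forskolin 2 were higher and 0 lower at 5 uM, where 3.53% and 4.18% of all genes were. At 1.7 uM 0 were higher against that control, where 1.97% of all genes were. Both 3-fold counts at 1.7 uM are near the background. Centring on the median level of the reference genes rests on B2m on every array and puts the median of all genes at -0.58 at 5 uM, -0.46 at 1.7 uM and -0.35 with retinoic acid plus forskolin against DMSO. It gave 3 members higher and 5 lower (median -0.38) at 5 uM, 1 and 2 (median -0.33) at 1.7 uM, and a median of -0.25 with retinoic acid plus forskolin. At 5 uM the median was -0.0918 against 1.7 uM. Against retinoic acid with forskolin it was -0.15 at 5 uM, with 2 members higher (5.94% of all genes were), and -0.22 at 1.7 uM. Centring on the median change of the reference genes, chosen after seeing the data, gave a median of 0.0823 at 5 uM against DMSO. It gave 3 members higher at 1.7 uM against DMSO, where 3.80% of all genes were. The median at 5 uM against retinoic acid with forskolin was then -0.0310. No paired analysis was possible because each group has 1 array. Signal near the floor limits Sil1, and Hyou1 and Edem3 could not be measured.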

Other observations

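With retinoic acid plus forskolin, some probe sets of the same gene gave different values. The dimmer probe set of Pdia3 was 0.81 above DMSO and the brighter 0.09 above it, and the probe sets of Edem1 differed from DMSO by 0.21, -0.22 and -0.42. Hyou1, an ER relative of Hsp70, was under the floor, with deposited log2 values of 4.22 with KHS101 at 5 uM, 3.29 at 1.7 uM, 3.25 with retinoic acid plus forskolin and 3.20 in DMSO.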
